A study of Mus musculus with 15 samples.

Results

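The genes described here are 10 transcription factors of the pancreatic and splenic mesenchyme: Nkx3-2, Tlx1, Nkx2-5, Barx1, Tcf21, Foxf1, Wt1, Tbx2, Tbx3 and Tbx4. They were chosen by name, with earlier results of these data known. Each matched 1 of the 25292 genes in the count table through its Ensembl identifier. All 10 were among the 16245 genes with enough reads to test. RNA of C57/Bl6J mouse embryonic pancreata was sequenced in 15 libraries, which fall into 5 groups of 3. Fresh pancreata were taken at 14.5 days post coitum (dpc) from wild-type (wt) and S1pr2 null embryos. S1pr2 is a receptor for the signalling lipid sphingosine-1-phosphate, and the null allele carries a Neo cassette in the first exon. Wild-type dorsal buds of that age were cultured as explants over 2 days at an air-liquid interface (ALI), that is, on a membrane that touches medium below and air above. These explants received standard medium (control), the S1pr2 antagonist JTE013 at 15 μM (JTE), or the antagonist at this dose and connective tissue growth factor at 50 ng/ml (JTE + CTGF). Each library was made from pooled organs, so the spread between libraries is that between pools.

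The mesenchyme of the dorsal pancreas is continuous with the tissue that forms the spleen, and both arise from the splanchnic mesoderm around the foregut. Nkx3-2, Tlx1, Nkx2-5, Barx1, Tcf21 and Wt1 are known from mouse mutants as factors of spleen formation, and Nkx3-2 also keeps gut and pancreatic tissue apart. Foxf1 is a forkhead factor of splanchnic mesoderm that responds to Hedgehog signals, Barx1 patterns the stomach mesenchyme, and Tbx2, Tbx3 and Tbx4 are T-box factors of many embryonic mesenchymes. These libraries hold all cells of the organ, so fewer cells of a type and less RNA per cell cannot be told apart.

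Total counts were 11402804 to 13828737 reads per library. S1pr2 itself had 762 to 772 normalised reads in wt and 1263 to 1458 in the libraries labelled S1pr2 null. Its transcript count was thus higher under that label (log2 fold change 0.83 ± 0.07 SE, adjusted p = 4.5e-07, edgeR). A gene-level count does not show whether protein was made, so it does not test the label. Every direction drawn from the genotype below rests on that label. All 6 pancreatic epithelium markers and all 9 general mesenchyme markers were detected in every group. Over all genes, JTE 3 stood apart from the other 2 JTE libraries, with a chi-square per gene of 16.6 and 22.3 against 2.93 between those 2, while control 3 had 9.88 and 7.93 and S1pr2 null 3 had 3.04 and 2.31. Library S1pr2 null 3 stood apart only for single genes, and results that rest on these libraries are given with and without them.

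The members differed in how their reads were counted. Barx1, Wt1, Tbx2 and Tbx4 were counted over the whole exonic length of the GENCODE M21 annotation, whereas Foxf1 was counted over 1062 bases (44.0% of it) and Tcf21 over 1223 bases (52.1%). Tlx1 was counted over 3585 bases (167.6%), since its model in the count table was longer. No 50-base stretch of their transcripts occurred in another gene. Exons of Tbx3 overlap those of Tbx3os1, an antisense gene, by 115 bases, and whether the counting used strand was not stated. Tbx3os1 itself had 4 to 58 reads per library, against 188 to 817 for Tbx3.

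Promoter sequence in the RefSeq table (GRCm38.p6) matched 6 of the 10 genes, and windows of 250 bases before the start given there were searched on both strands. Barx1 and Nkx2-5 are shown because they lie at opposite ends of base composition and belong to a gene at a high level and a gene at a low level in these libraries. Each is printed 5′ to 3′ on the gene's strand for the stretch outside the annotated exons, with GC boxes (GGGCGG) in capitals. Barx1 (chr13:48662786-48662997, plus strand) and Nkx2-5 (chr17:26841609-26841815, minus strand) read as follows.
Barx1: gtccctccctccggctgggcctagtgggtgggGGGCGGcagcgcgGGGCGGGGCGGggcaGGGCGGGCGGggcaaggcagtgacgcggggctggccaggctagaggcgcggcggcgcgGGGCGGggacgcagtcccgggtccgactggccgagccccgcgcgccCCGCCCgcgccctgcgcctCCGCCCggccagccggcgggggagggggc
Nkx2-5: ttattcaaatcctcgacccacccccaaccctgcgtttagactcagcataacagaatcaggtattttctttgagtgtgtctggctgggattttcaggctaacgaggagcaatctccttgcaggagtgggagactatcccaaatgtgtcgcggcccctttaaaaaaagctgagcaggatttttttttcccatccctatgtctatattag
The Barx1 window was 85.6% G and C and held 8 matches to the GC box, some of which overlap each other, and 40 CpG dinucleotides. The Nkx2-5 window was 49.2% G and C with 8 CpG dinucleotides and held none of the motifs given here. Across 32851 promoter windows the median was 52.4% G and C with 6 CpG dinucleotides, and 32.7% held a GC box. The window of Tlx1 held a CCAAT box (CCAAT), which 33.8% of all windows held. The windows of Nkx3-2 and Tbx4 each held 1 GC box, that of Tbx4 also held a TATA box (TATAAA, 12.4% of all windows), and that of Tcf21 held none of them. The windows of Tbx4 (chr11:85896515-85896764), Tlx1 (chr19:45150465-45150714) and Nkx3-2 (chr5:41764221-41764470) lie inside the spans counted for these genes, not before them. Those of Tlx1 and Nkx3-2 fall wholly in annotated exons. The TEAD motif CATTCC, the NK2 motif TNAAGTG and the T-box motif AGGTGTGA occurred in 12.6%, 10.1% and 1.1% of all windows and in none of these 6. A match describes letters only.

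Levels of different genes were compared as reads per kilobase of the counted length, divided by the TMM-scaled library size (RPKM). In wt, Barx1 was highest at 34.6 ± 3.0 (SD, n = 3), followed by Tbx2 at 32.3 ± 2.8 and Tcf21 at 26.5 ± 4.7, and the ranges of neighbours among these 3 overlapped. Nkx3-2 followed at 11.1 ± 0.9, Wt1 at 7.39 ± 0.45, Tbx3 at 6.26 ± 0.63 and Tlx1 at 3.94 ± 0.53, with no overlap between neighbours. Foxf1 (2.10 ± 0.29), Nkx2-5 (0.91 ± 0.38) and Tbx4 (0.37 ± 0.04) were lowest. The length counted enters these levels, so those of Foxf1, Tcf21 and Tlx1 depend on the older gene models. Fewer than 10 reads were counted for Tbx4 in all 9 explant libraries, so its place among the tested genes rests on the fresh pancreata alone. At least 10 reads were counted in 10 libraries for Nkx2-5 and in 12 for Foxf1, and in all 15 for the other members.

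**Figure D1:**
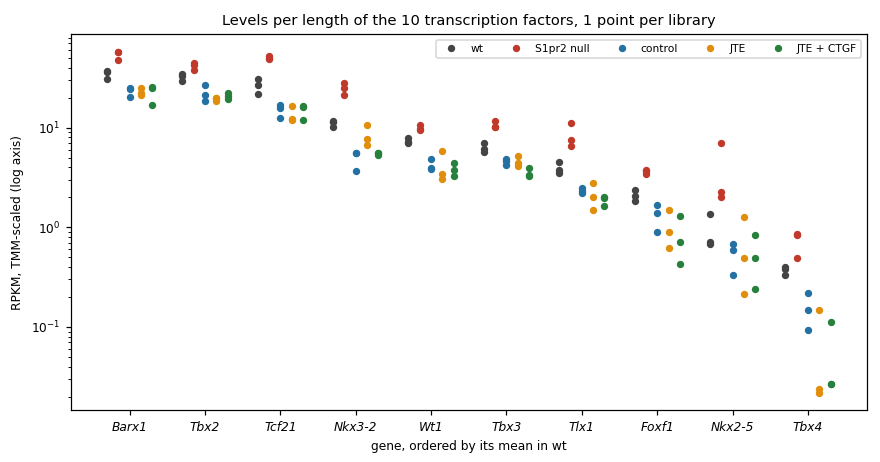
RPKM (log axis) of the 10 transcription factors, ordered by their mean in wt, with 1 point per library and 1 colour per group. Barx1, Tbx2 and Tcf21 lie highest, from 21.8 to 36.6 in the wt libraries, and Tbx4 lies lowest.

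The order of the groups was alike for most members. In all 10 genes the lowest S1pr2 null library lay above the highest wt library, against 22.5% of all genes, as description only. In all 10 it also lay above all 9 explant libraries. In 8 genes the lowest wt library lay above every explant library. The exceptions were Nkx3-2, for which JTE 3 reached 230 normalised reads against 217 in wt 2, and Nkx2-5, for which JTE 3 (24.2) and JTE + CTGF 2 (14 reads) lay within the wt range. For the orders against all 9 explant libraries the shares of all genes were not computed, so these counts are description only. Tbx4 was tested only because of the fresh pancreata, where it is high, so its order against the explants is no support. A normalised read count is the count scaled by TMM to the mean library size.

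**Figure D2:**
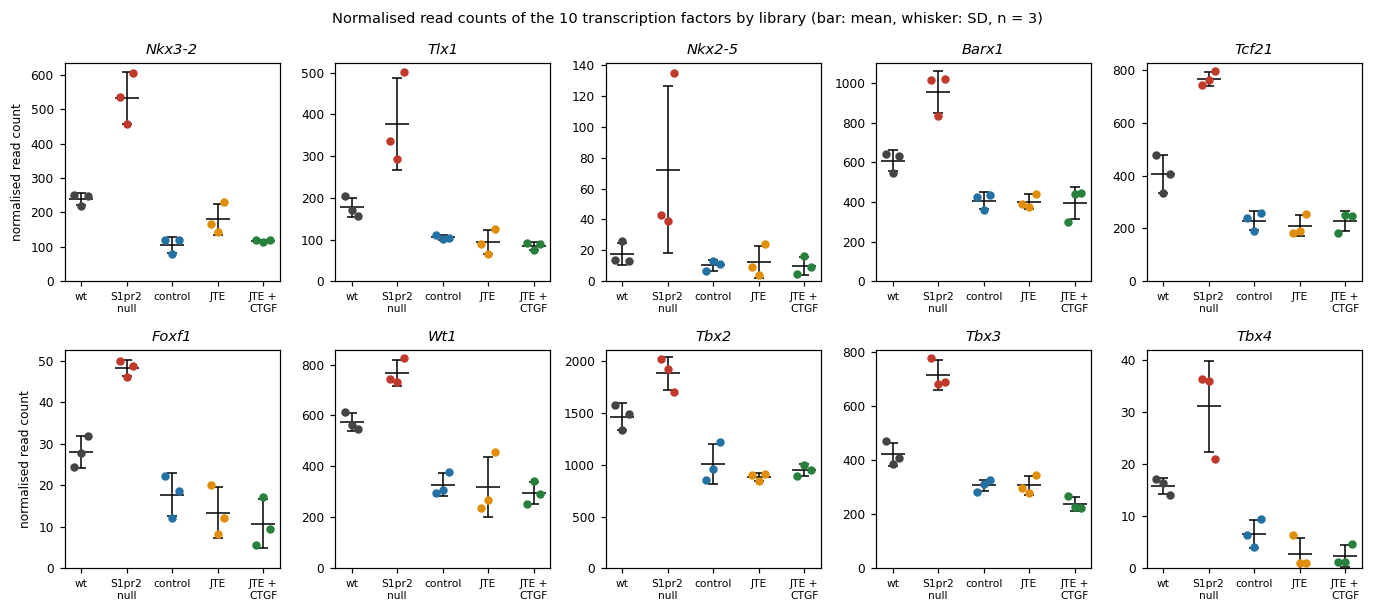
Normalised read counts (vertical axes, from 0) of each transcription factor in the 15 libraries, with the group mean (bar) and SD (whisker, n = 3). The S1pr2 null libraries lie above all others in every panel, and the explants lie at or below the wt libraries except for single JTE and JTE + CTGF libraries of Nkx3-2 and Nkx2-5.

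The first comparison asked how the genotype changed these genes in fresh pancreata. Of the 10 genes, 9 rose in the S1pr2 null libraries at an adjusted p below 0.05 by the quasi-likelihood F-test of edgeR, with adjustment by Benjamini-Hochberg over all genes tested. Among all 16245 genes 12.6% rose by this rule and 25.8% changed in either direction. The members were chosen with earlier results of these data known, so shares of all genes, here and below, serve as description only. The ranges of the 3 libraries did not overlap for any member, against 22.5% of all genes without overlap in that direction. The median log2 fold change of the members was 0.85, and that of all genes was -0.01. Under the stricter criterion of the study, which asks for a fold above 1.6 or below 0.6 and over 100 normalised reads, 4 members were called against 3% of all genes.

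The homeobox genes Nkx3-2, Tlx1 and Nkx2-5 rose, with log2 fold changes above 1 when all libraries were kept. Nkx3-2 (chr5:41761483-41764496, minus strand), an NK homeodomain factor, had 250, 217 and 248 normalised reads in wt and 537, 456 and 606 in S1pr2 null. Its log2 fold change was 1.16 ± 0.15 (SE), a fold of 2.24, with an adjusted p of 2.7e-05. Tlx1 (chr19:45149236-45156943, plus strand), a homeobox factor without which the spleen is not kept, had 203, 170 and 158 normalised reads in wt and 336, 294 and 501 in S1pr2 null. All S1pr2 null libraries lay above wt, and S1pr2 null 3 was far above the other 2. The log2 fold change of Tlx1 was 1.09 ± 0.19 (adjusted p = 0.000405) and 0.83 without S1pr2 null 3, when it still passed the test. Nkx2-5 (chr17:26838664-26841565, minus strand), best known as a cardiac homeodomain factor, had 13.5, 25.9 and 13.1 normalised reads in wt and 43.2, 38.8 and 134.6 in S1pr2 null. Library S1pr2 null 3 held most of the Nkx2-5 reads of its group, 160 reads with an exact Poisson 95% interval of 136 to 187, so counting error did not cover the gap to the 44 and 42 reads of the other 2. The log2 fold change of 2.06 ± 0.50 (adjusted p = 0.00586) became 1.23 without that library, and the call was lost (adjusted p = 0.0665).

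Barx1 and Tcf21 rose, and so did Foxf1 on few reads. Barx1 (chr13:48662998-48666507, plus strand), a homeobox factor of stomach mesenchyme, had 643, 546 and 632 normalised reads in wt and 1015, 832 and 1019 in S1pr2 null. Its log2 fold change was 0.65 ± 0.12 (adjusted p = 0.000612). Tcf21 (chr10:22817279-22820128, minus strand), a basic helix-loop-helix factor of visceral mesenchyme, had 477, 334 and 407 normalised reads in wt and 744, 760 and 794 in S1pr2 null. Its log2 fold change was 0.91 ± 0.13 (adjusted p = 9.3e-05). Foxf1 (chr8:121084474-121086879, plus strand) had 24.3, 27.8 and 31.9 normalised reads in wt and 50.0, 46.2 and 48.8 in S1pr2 null, with few reads over its short model. Its log2 fold change of 0.79 ± 0.26 passed the test at an adjusted p of 0.0367. The call was lost when any wt or S1pr2 null library was left out, with values from 0.69 to 0.89 and adjusted p-values up to 0.116.

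The T-box genes Tbx2, Tbx3 and Tbx4 rose, and Wt1 did not pass the test. Wt1 (chr2:105126529-105173616, plus strand), a zinc finger factor of mesothelium and coelomic mesenchyme, had 614, 562 and 547 normalised reads in wt and 745, 732 and 825 in S1pr2 null. Its log2 fold change of 0.42 ± 0.16 did not pass the test (adjusted p = 0.0585, 95% interval 0.09 to 0.75), although the groups did not overlap. In the fit without JTE 3, where Wt1 varied most, the value was 0.41 with an adjusted p of 0.00276, and without JTE 1 it was 0.42 with an adjusted p of 0.0326. With only the wt and S1pr2 null libraries in edgeR the value was 0.43 with an adjusted p of 0.00012. Without a filter on low counts it was 0.42 with an adjusted p of 0.0053. Neither DESeq2 (adjusted p = 0.0591) nor its size factors in edgeR (adjusted p = 0.0584) gave a call. Tbx2 (chr11:85832551-85841948, plus strand), a T-box repressor, had 1582, 1332 and 1488 normalised reads in wt and 2022, 1926 and 1706 in S1pr2 null. The smallest called change was that of Tbx2, at 0.36 ± 0.10 (adjusted p = 0.0133), and the call was lost without wt 2 (0.30, adjusted p = 0.0771) or S1pr2 null 1 (0.31, adjusted p = 0.0643). Tbx3 (chr5:119670669-119684724, plus strand), the closest relative of Tbx2, had 469, 387 and 407 normalised reads in wt and 778, 681 and 687 in S1pr2 null. It rose by 0.76 ± 0.09 (adjusted p = 1.7e-05), and Tbx3os1 on the other strand had 31 to 37 reads in wt and 55 to 58 in S1pr2 null. Tbx4 (chr11:85886422-85916097, plus strand), a T-box factor of lung and hindlimb mesenchyme, had 17.1, 16.3 and 14.1 normalised reads in wt and 36.3, 36.0 and 21.0 in S1pr2 null. The Tbx4 change of 0.96 ± 0.34 (adjusted p = 0.0464) kept its call in 7 of 15 fits that left out 1 library, with values from 0.84 to 1.19 and adjusted p-values up to 0.152. Libraries whose loss ended the Tbx4 call were wt 1, 2 and 3, S1pr2 null 1 and 2, control 1 and JTE + CTGF 1 and 2.

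Markers of other cells moved in the same comparison, and their part in the result was not tested. All 8 general epithelium markers fell (median log2 fold change -0.46), with summed levels of 17320 to 18186 normalised reads in S1pr2 null against 24232 to 26647 in wt. Of the 9 general mesenchyme markers 2 rose and 4 fell (median -0.16), and their sum was 117588 to 138192 in S1pr2 null against 146702 to 148957 in wt. Of the 4 pericyte markers 3 rose (median 0.51), with sums of 4290 to 4549 against 3053 to 3321, and the 6 mesothelium markers had a median of -0.10 with adjusted p-values from 0.056 up. When libraries were scaled to the general mesenchyme markers in place of TMM, all 10 transcription factors passed the test, with log2 fold changes from 0.42 to 2.10. Summed levels of stomach and gut epithelium markers were 14.4 to 42.7 normalised reads over all libraries, and those of gonad and adrenal markers 5.92 to 50.3. Liver markers were present, with up to 1060 reads of Afp in a library. All 5 had values below 0 in S1pr2 null (median -1.25), and 1 was called, Apoa1 (-1.25, adjusted p = 0.0036).

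**Figure D3:**
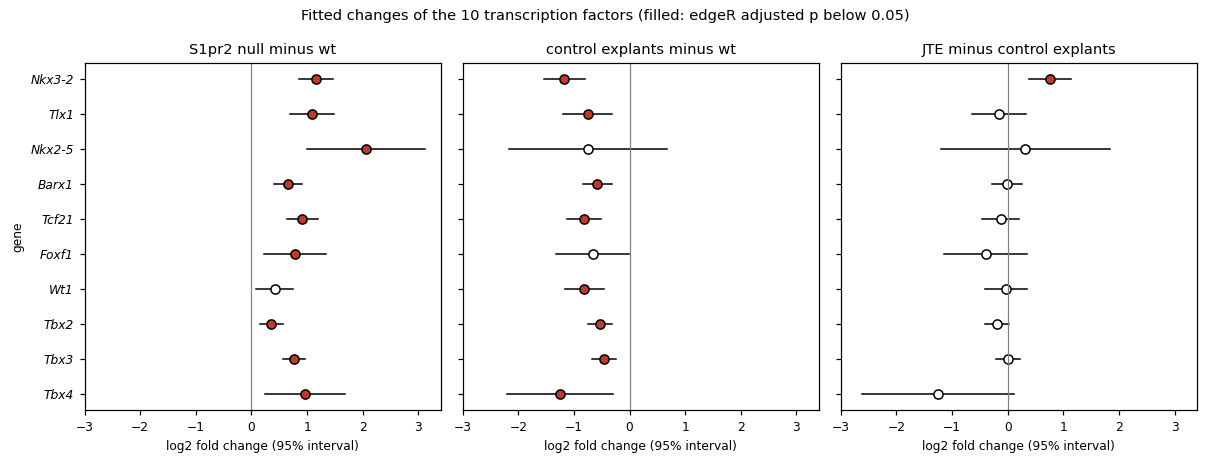
Log2 fold changes of the 10 transcription factors with their 95% intervals (horizontal axes) in S1pr2 null against wt, control explants against wt, and JTE against control explants. Filled points pass an adjusted p of 0.05: 9 of them lie right of 0 in the first panel, 8 lie left of 0 in the second, and Nkx3-2 alone is filled in the third.

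The comparison of control explants with fresh wt pancreata addressed the change in culture. Culture, the passing of 2 days and the tissue taken (dorsal buds) differed together and cannot be told apart. Of the 10 transcription factors, 8 fell, against 29.3% of all genes that fell and 57.8% that changed in either direction. Tbx4 is among the 8 although it passed the filter on low counts only through the fresh pancreata, where it is high, and of the other 9 genes 7 fell. The ranges of all 10 lay apart, against 33.1% of all genes lower without overlap. Tbx4 counts among these 10 too and is no support. Nkx2-5 lay apart only narrowly, with 13.07 normalised reads in control 2 and 13.14 in wt 3. The median log2 fold change was -0.75 for the members, Tbx4 included, and -0.02 for all genes tested. The study's criterion called 4 members and 12.1% of all genes.

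Nkx3-2 fell most among the well-counted genes, to 120, 78.4 and 120 normalised reads in control explants (log2 fold change -1.17 ± 0.17, adjusted p = 1.9e-05). Tcf21 had 241, 191 and 257 normalised reads (-0.83 ± 0.15, adjusted p = 0.000123) and Wt1 had 297, 306 and 379 (-0.81 ± 0.17, adjusted p = 0.000563). Each of these lay below every wt library. Tlx1, at 110, 101 and 104 normalised reads, fell by 0.76 ± 0.21 on the log2 scale (adjusted p = 0.00537). Barx1 (-0.58 ± 0.13), Tbx2 (-0.54 ± 0.10) and Tbx3 (-0.46 ± 0.10) fell less. Tbx4 had 6, 4 and 9 reads in control explants and a log2 fold change of -1.25 ± 0.45 (adjusted p = 0.0246). Only the fresh pancreata, where it is high, brought it past the filter on low counts, so its call is no support for a fall. This call was lost without wt 1, wt 2, control 1 or control 2, with values from -1.24 to -0.99 and adjusted p-values up to 0.103. Foxf1 (-0.66 ± 0.31, adjusted p = 0.0779) and Nkx2-5 (-0.75 ± 0.68, adjusted p = 0.361) did not pass the test, on 12 to 21 and 6 to 13 reads per control library.

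General markers went the other way or with the members. Of the 9 general mesenchyme markers 5 rose and 2 fell (median 0.31), and 5 of 8 general epithelium markers rose (median 0.43). Of the 6 mesothelium markers 5 fell and 1 rose (median -1.36), and their summed level went from 2077 to 2100 in wt to 543 to 834 in control explants. All 5 erythroid markers fell (median -5.79), as did 3 of 5 liver markers (median -1.17). Scaled to the general mesenchyme markers, which shifted the median of all genes to -0.21, 9 of the 10 transcription factors fell. The part of these markers in the result was not tested.

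**Figure D4:**
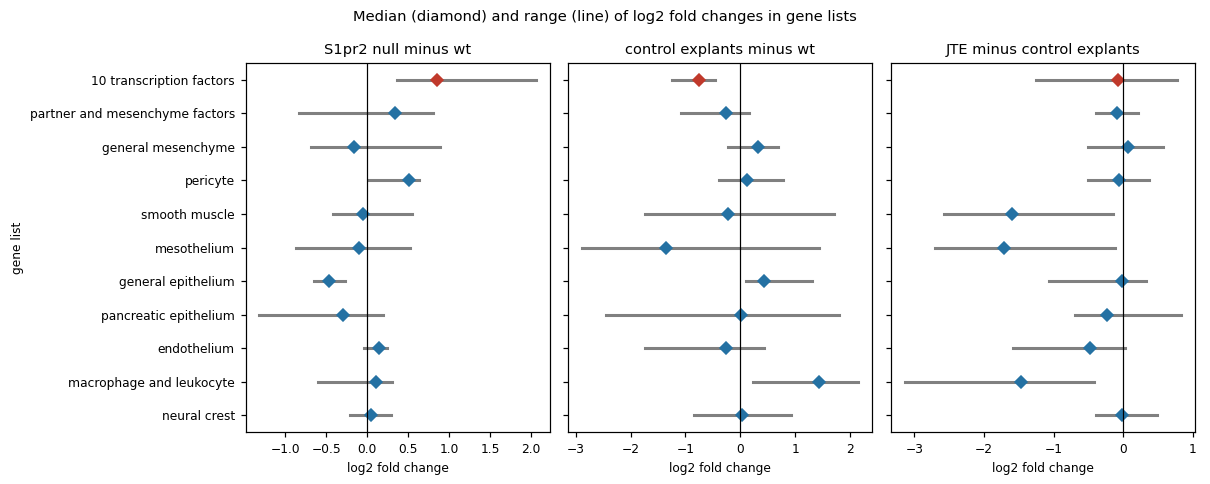
Median (diamond) and range (line) of log2 fold changes over the tested genes of the 10 transcription factors and 10 other gene lists in 3 comparisons, with a separate horizontal scale in each panel. The 10 transcription factors have a median of 0.85 in S1pr2 null, -0.75 in control explants and -0.08 with JTE, where smooth muscle, mesothelium and macrophage markers have medians from -1.71 to -1.47.

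JTE013, which blocks S1pr2 acutely, was compared with standard culture. Of the 10 genes only Nkx3-2 passed the test by edgeR, while 25.9% of all genes rose and 52.2% changed in either direction. It also met the study's criterion, as did 8.25% of all genes. Nkx3-2 had 166, 143 and 230 normalised reads with JTE against 120, 78.4 and 120 in control explants. The groups lay apart, with a log2 fold change of 0.77 ± 0.18 (adjusted p = 0.00166), which was 0.54 without JTE 3 (adjusted p = 0.0124). Wt1 had 237, 268 and 455 normalised reads with JTE, of which JTE 3 lay above all control libraries and the other 2 below them. Its log2 fold change was -0.02 (95% interval -0.40 to 0.35), and without JTE 3 it was -0.38 with an adjusted p of 0.0209. Library JTE 3 also had the highest Tlx1 (125), Nkx2-5 (24.2), Tcf21 (255), Barx1 (442), Tbx2 (911) and Tbx3 (346) of its group. Foxf1 and Tbx4 were highest in JTE 1. Without JTE 3 the log2 fold changes were -0.43 for Tlx1, -0.61 for Nkx2-5 and -0.30 for Tcf21, and these genes were still not called. Library JTE 3 had the lowest summed level of pancreatic epithelium markers, 83121 normalised reads against 137990 and 162696. That sum mostly follows Cpa1, which had up to 152152 reads in a library, while no other marker of the list passed 3249. It therefore does not measure the share of epithelium.

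The other members had intervals around 0 that differed in width. For Barx1 the 95% interval of the log2 fold change with JTE was -0.29 to 0.26, and for Tbx3 it was -0.21 to 0.22. The interval of Tbx2 was -0.42 to 0.03, with 898, 841 and 911 normalised reads against 849, 957 and 1225 in control explants. Without control 1 its value of -0.30 passed the test (adjusted p = 0.0204). Without control 3, the highest control library, its value was -0.032 and was not called. Tcf21 (-0.46 to 0.20) and Tlx1 (-0.64 to 0.32) followed. Foxf1 (-1.14 to 0.35) and Nkx2-5 (-1.20 to 1.83) were too thinly counted to bound a change of 2-fold. Tbx4 had 6, 1 and 1 reads with JTE against 6, 4 and 9 in control explants, with an interval of -2.62 to 0.11. A single read has an exact Poisson interval of 0.025 to 5.57 reads. Without JTE 1, which held the 6 reads, the Tbx4 value was -2.61 (adjusted p = 0.0116). As only the fresh pancreata brought Tbx4 past the filter on low counts, this call is no support for a fall. In the same comparison 5 of 6 mesothelium markers fell (median -1.71), with summed levels of 219 to 387 against 543 to 834, while Wt1 did not pass the test.

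With CTGF beside JTE013, Tbx3 had 268, 226 and 223 normalised reads against 283, 311 and 326 in control explants. It was the only member past the test against control explants, with a log2 fold change of -0.36 ± 0.11 (adjusted p = 0.00782), where 33% of all genes fell and 61.1% changed in either direction. Against JTE alone, 2 members fell, Tbx3 (-0.37 ± 0.11, adjusted p = 0.016) and Nkx3-2 (-0.62 ± 0.18, adjusted p = 0.0146), where 16.8% of all genes fell and 30.4% changed. Nkx3-2 had 119, 113 and 120 normalised reads with JTE + CTGF, a narrow range within that of the control explants. Both calls against JTE were lost without JTE 3, with values of -0.36 for Nkx3-2 (adjusted p = 0.12) and -0.23 for Tbx3 (adjusted p = 0.122). The Tbx3 call was also lost without JTE + CTGF 2 (-0.33, adjusted p = 0.0625) or JTE + CTGF 3 (-0.32, adjusted p = 0.0761). No member met the study's criterion in either comparison, which 11.8% of all genes met against control explants and 1.74% against JTE, while edgeR called the 1 and 2 members above at an adjusted p below 0.05, the same numbers as at an unadjusted p under 0.05. The comparisons of both treated groups with control share the control libraries, and those of JTE share the JTE libraries. Without JTE + CTGF 2 Foxf1 also passed the test against control explants (-1.21, adjusted p = 0.0235), and without JTE + CTGF 3 (-2.40, adjusted p = 0.0309) or JTE 1 (-1.45, adjusted p = 0.046) so did Tbx4. Tbx4 had only 1, 1 and 4 reads with JTE + CTGF and was tested only because of the fresh pancreata. Its calls here are no support for a fall.

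The response to JTE013 in explants and the difference by genotype in fresh pancreata share no libraries, and the difference between them was tested as an interaction. It was negative for all 10 members and passed the test for 7, or 6 of the 9 without Tbx4, against 21.5% of all genes that passed in that direction and 42.9% in either. Tlx1 (-1.25 ± 0.29), Tcf21 (-1.04 ± 0.20), Tbx3 (-0.76 ± 0.14), Barx1 (-0.67 ± 0.18) and Tbx2 (-0.55 ± 0.15) kept the call in each fit that left out 1 library. Foxf1 (-1.18 ± 0.44) kept it in 6 of 15 such fits, and lost it without wt 1 or 2, S1pr2 null 1, 2 or 3, control 1 or 3, or JTE 2 or 3, with values from -1.21 to -0.93 and adjusted p-values up to 0.116. Tbx4 (-2.22 ± 0.73) lost it without control 3 (-1.88, adjusted p = 0.0849), JTE 2 (-1.85, adjusted p = 0.0634) or JTE 3 (-1.78, adjusted p = 0.0603). Nkx3-2, which rose in both settings, had an interaction of -0.39 ± 0.23 (adjusted p = 0.188, 95% interval -0.88 to 0.10), and Wt1 one of -0.44 ± 0.24 (adjusted p = 0.145). Nkx2-5 was at -1.74 ± 0.90 (adjusted p = 0.129). Without JTE 3 Nkx3-2 (-0.61, adjusted p = 0.0227), Wt1 (-0.79, adjusted p = 0.00061) and Nkx2-5 (-2.66, adjusted p = 0.0306) passed, and 8 members were called. Genotype and antagonist, fresh tissue and culture differ between the 2 responses, and cannot be told apart here.

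Genes that work with these factors were followed as further lists. Of 12 partner and mesenchyme factors, among them the Meis homeodomain cofactors, 9 rose and 2 fell in S1pr2 null (median 0.34), and 7 fell in control explants (median -0.26). The 2 that fell, named after their values were seen, were the zinc finger factor Gata4 (-0.84, adjusted p = 4.5e-05) and the LIM homeodomain factor Isl1 (-0.33, adjusted p = 0.00105). Nkx2-3, an NK homeodomain factor of spleen and gut mesenchyme, rose by 0.81 (272 ± 11 to 476 ± 24 normalised reads). Osr1, a zinc finger factor of coelomic mesoderm, had 990 ± 62 normalised reads in wt, 1221 ± 85 in S1pr2 null and 469 ± 43 in control explants (log2 fold change -1.08 against wt, adjusted p = 8.9e-09). Most relatives of the members were hardly detected. Barx2, Foxf2, Msc, Tbx5, Tbx15, Tbx18 and Tlx3 had too few reads to test, and of the 3 tested Tlx2 rose with JTE (1.07, adjusted p = 0.00017) and Tbx1 rose with JTE + CTGF against control explants (1.42, adjusted p = 0.00054).

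Of 6 tested genes known to lie downstream of the members 1 rose and 3 fell in S1pr2 null, and 1 rose and 3 fell in control explants. Sfrp1, a Wnt antagonist raised by Barx1 in stomach mesenchyme, rose from 3149 ± 405 to 6354 ± 594 normalised reads in S1pr2 null (log2 fold change 1.01, adjusted p = 2.6e-07) and fell to 1153 ± 51 in control explants (-1.45 against wt). Sfrp2 had 901 ± 61 normalised reads in wt and 930 ± 166 in S1pr2 null, and fell to 189 ± 34 in control explants (-2.25). Cdkn2b, which encodes a cell cycle inhibitor, moved the other way, falling in S1pr2 null (-2.02, 2.8 ± 1.1 normalised reads against 11.5 ± 0.9) and rising in control explants (2.50). It fell with JTE against control explants (-1.35, adjusted p = 0.00012). Fgf10, a mesenchymal growth factor for pancreatic progenitors, rose with JTE from 64.1 ± 5.4 to 198 ± 55 normalised reads (1.63, adjusted p = 1.2e-06). Cdkn2a had too few reads to test.

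Of 6 mesenchymal signals 3 rose in S1pr2 null. These were Wnt5a (1.05, adjusted p = 4.9e-06), from 622 ± 48 to 1286 ± 33 normalised reads, Bmp4 (1.03, adjusted p = 0.0036), from 85.5 ± 6.9 to 175 ± 28, and Fgf9 (0.49, adjusted p = 0.022). In control explants Bmp4 (-1.84), Wnt2b (-1.70), Fgf9 (-1.08) and Wnt5a (-0.99) fell, while Fgf7 (1.49) and Fst (1.41), both below 20 normalised reads on average in each group, rose. Fst, an activin antagonist, fell with JTE (-1.85, adjusted p = 0.0017), and Wnt2b fell with JTE + CTGF against control explants (-1.66) and against JTE (-1.39). The 3 Hedgehog targets had log2 fold changes from -0.44 to 0.04 in S1pr2 null, with adjusted p-values from 0.20 up. With JTE Gli1 fell from 59.2 ± 33.0 to 6.0 ± 0.4 normalised reads (-3.27, adjusted p = 3.3e-06) while Hhip rose from 69 ± 19 to 187 ± 36 (1.43, adjusted p = 1.1e-05), and Ptch1 fell with JTE + CTGF against control explants (-1.04, adjusted p = 8.9e-08). Foxf1 had 12 to 21 reads in control explants and 8 to 19 with JTE.

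The pattern of each member over the 5 groups was compared with that of all tested genes with a mean of at least 50 normalised reads, by the root mean square difference of group means of log2 CPM, each centred on its own mean. Over these 5 group means Tlx1 and Tcf21 were the most alike pair of members (0.114), and Tlx1 had Tcf21 as its nearest gene of 12814. Barx1 lay nearest to Hoxb6 (0.058) and Nkx2-3 (0.066), and among members to Wt1 (0.116). Tbx2 and Tbx4 were the least alike members (0.769). The 2 nearest genes were Gdf6 and Unc5c for Nkx3-2, Lrrn3 beside Tcf21 for Tlx1, Grik1 and Lrrn3 for Nkx2-5, Kazald1 and Dact1 for Tcf21, Iglon5 and ENSMUSG00000079662 for Foxf1. They were Ldb2 and Nkain4 for Wt1, Nxn and Spsb4 for Tbx2, Ntm and Zfp521 for Tbx3, and Pdlim3 and Adamts20 for Tbx4, at differences from 0.031 to 0.173. With 5 means in 2 fresh and 3 cultured groups, these values describe likeness only.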

How the data were processed

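Poly(A) RNA of 15 libraries was measured. The authors aligned single-end reads to mm10 with GSNAP and deposited raw read counts per Ensembl gene, made with featureCounts 1.4.6 (submitters' processing notes). Whether counting used strand was not given in the sources used here. Groups came from the sample titles. Symbols came from GENCODE M21 for 24750 of 25292 identifiers (97.9%).

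The test was edgeR's quasi-likelihood F (edgeR 4.0.16 in R 4.3.3), after TMM and filterByExpr, with 1 coefficient per group and all 15 libraries. P-values were adjusted over 16245 genes by Benjamini-Hochberg and called below 0.05. The biological coefficient of variation was 7.3%. Standard errors were the log2 fold change divided by the root of F. Poisson intervals cover counting error only. Alternatives were DESeq2 1.42.0, its size factors, no filter, only the groups compared, a replicate block, scaling to mesenchyme markers, the study's criterion and leaving out each library. On simulated counts for S1pr2 null against wt, the test was checked before use. The simulation gave all genes the same spread and planted changes only in well-counted genes. It therefore does not bear on thinly counted members or on libraries that stand apart. The 10 genes and all lists were chosen with earlier results of these data known. All 10 are named in each comparison. Genes of the partner, relative, downstream, signal and Hedgehog lists are named when called with an absolute log2 fold change of at least 1, or when too few reads allowed no test. The 2 genes nearest in pattern to each member, Nkx2-3 among them, are named too. Spans are those of exons in the count table (mm10). Annotation and plots used Python 3.11.15. A few genes and 1 motif of the lists are not reported here.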

Additional observations from a re-analysis of the deposited data

Results flagged for a closer look

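A test of the difference marked 7 genes: their response to JTE013 in explants was lower than the difference by genotype in fresh pancreata (interaction in edgeR, adjusted p below 0.05). Of all 16245 genes 21.5% passed in that direction and 42.9% in either. Tbx4 is among the 7 although only the fresh pancreata brought it past the filter on low counts, so its mark is no support. On the log2 scale the interaction was -1.25 for Tlx1, -0.67 for Barx1, -1.04 for Tcf21, -1.18 for Foxf1, -0.55 for Tbx2, -0.76 for Tbx3 and -2.22 for Tbx4. The genotype differences of these genes were 1.09, 0.65, 0.91, 0.79, 0.36, 0.76 and 0.96, in the same order, while their responses to JTE013 were -0.16, -0.02, -0.13, -0.40, -0.19, 0.00 and -1.26 and their adjusted p-values were 0.114 or higher.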

How the results depend on the processing

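In S1pr2 null against wt and in control explants against wt no member changed direction under any alternative run. By the criterion of the study (adjusted p of at most 0.1, a mean above 100 normalised reads in either group and a fold below 0.6 or above 1.6) 4 members were called in S1pr2 null, 4 in control explants, 0 with JTE + CTGF against control and 0 against JTE. Its count and fold limits leave out thinly counted genes and small changes. In the last 2 comparisons edgeR and DESeq2 each called 1 and 2 members at an adjusted p below 0.05, as many as edgeR had at an unadjusted p under 0.05.

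With each library left out in turn, 6 to 10 members were called in S1pr2 null, 1 to 2 with JTE, 1 to 2 with JTE + CTGF against control, 0 to 2 against JTE, 7 to 8 in control explants and 5 to 8 in the interaction.

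Reversed values were near 0 and not called. Tbx3 with JTE was -0.017 with DESeq2, -0.018 with its size factors in edgeR, -0.0060 with only the groups compared and -0.065 with scaling to mesenchyme markers. With JTE + CTGF against control Tcf21 was 0.021 without a filter and 0.0064 with only the groups compared, and Nkx3-2 was -0.010 with scaling to mesenchyme markers. Barx1 against JTE was 0.0027 without a filter.

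Leaving out 1 library turned the direction of values that were not called. The range with JTE was -0.098 to 0.037 for Barx1, -0.095 to 0.073 for Tbx3, -0.38 to 0.15 for Wt1, -0.43 to 0.041 for Tlx1 and -0.61 to 0.73 for Nkx2-5. The range with JTE + CTGF against control was -0.14 to 0.12 for Tcf21, -0.032 to 0.25 for Nkx3-2, -0.56 to 0.30 for Nkx2-5, -0.13 to 0.13 for Barx1 and -0.20 to 0.068 for Tbx2. The range with JTE + CTGF against JTE was -0.81 to 0.080 for Foxf1, -1.14 to 1.15 for Tbx4, -0.35 to 0.16 for Tlx1, -0.87 to 0.60 for Nkx2-5, -0.12 to 0.14 for Barx1 and -0.30 to 0.26 for Wt1.

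Scaling to mesenchyme markers moved the median of all genes to -0.19 with JTE + CTGF against control, to -0.21 in control explants and to -0.12 in the interaction. With DESeq2 the calls of Foxf1 (adjusted p = 0.0706) and Tbx4 (0.126) in S1pr2 null and of Tbx4 in control explants (0.0547) were lost, as was that of Foxf1 in the interaction (-1.21, adjusted p = 0.0587), which left 6 members called there. The replicate block called 9 members in S1pr2 null, 1 with JTE, 1 with JTE + CTGF against control, 2 against JTE, 8 in control explants and 6 in the interaction. Under the block Wt1 was called in S1pr2 null (0.41, adjusted p = 0.0441), and Tbx4 there (0.96, 0.0521) and Foxf1 in the interaction (-1.18, 0.0504) were not. Replicate numbers had no shared source in the labels, and deviations of same-numbered libraries correlated at -0.20 to 0.40. The highest values were 0.26 and 0.40, for replicates 2 and 3 of JTE against control. Whether those libraries shared a source was not tested. At most 3 of the 6 libraries of a comparison correlated best with their own number. The few reads of Tbx4, Nkx2-5 and Foxf1 in explants limit their values.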
